A study of Mus musculus with 6 samples.

Results

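The early neuronal differentiation genes are a set of 31 mouse genes that are switched on as cells of the neural tube stop dividing and become neurons. The set was drawn up as a list of symbols, and each gene was read from the probe set that the platform annotation assigns to that symbol alone, taking the brightest where a gene had several. All 31 genes had such a probe set, out of 19938 genes with one, and 30 of them were among the 11802 genes bright enough to be tested. Tbr1 was the exception, with a mean log2 signal of 7.0638 against a brightness limit of 7.0642, while the dimmest member above the limit, Mapt, had a mean of 7.41. Tbr1 is described from the same fit without that limit.

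The samples were the dissected heads, forebrain and midbrain vesicles only, of 6 mouse embryos on a C57Bl6 background at embryonic stage E10.5. Of these, 3 were labelled wild type (WT) and 3 Taspase1 knockout (Tasp1 -/-, KO), all from matings of Tasp1 +/- parents. Each head was a separate embryo and was read on 1 Affymetrix array, and the knockout is not described as restricted to a tissue. Taspase1 is a protease that cleaves MLL-family histone methyltransferases and a precursor of the general transcription factor TFIIA, and the comparison asked which genes it regulates in development.

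Neurons arise in the neural tube when a progenitor raises its proneural basic helix-loop-helix (bHLH) proteins, such as the neurogenins, which activate Notch ligands and a cascade of later bHLH genes. Newly formed neurons then switch on transcription factors that set their subtype, and a shared set of genes for microtubules, neurofilaments, axons and neuron-type RNA processing. At this stage the first neurons of the forebrain and midbrain lie as a thin layer outside a thick sheet of dividing progenitors. The members were therefore read in 5 classes: 8 proneural and nascent-neuron factors, 8 postmitotic transcription factors, 9 cytoskeletal genes, 2 genes of the axonal membrane and 4 RNA-binding or splicing genes.

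Facts of the whole series that bear on these genes were few. Array medians lay between 7.35 and 7.45 on the log2 scale. On the first principal component WT 1 was the most distant head (−13.3, against −1.06 to 6.20), and WT 2 alone had a high signal of Xist, the RNA of the inactive X chromosome (12.3, the other heads 4.90 to 5.24). WT 2 was also low for the Y-linked genes Kdm5d (5.48, the others 9.76 to 9.88) and Eif2s3y (4.52, the others 9.44 to 10.02). By these signals WT 2 read as female, and the other heads, with every KO-labelled one, as male. The Tasp1 signal was 8.10, 8.45 and 8.49 in WT 1, WT 2 and WT 3 and 8.63, 8.63 and 8.50 in KO 1, KO 2 and KO 3. It was thus higher in every KO-labelled head than in every WT-labelled one, narrowly so for KO 3 over WT 3. Of all genes tested, 4.52% were higher in this way. No source used here tells whether the probes fall inside the deletion, which leaves the genotypes unchecked, and the groups are named below as their labels have them, KO-labelled and WT-labelled. All 11 forebrain and midbrain neuroepithelium markers with a probe set of their own (13 listed) were above the brightness limit. Of the 6 hindbrain markers with one (8 listed) 3 were, and of the 6 such markers of cranial ganglia and placodes (10 listed) 4 were, the peripheral neuron gene Prph and the sensory neuron gene Tlx3 being below it.

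Most members read slightly lower in the KO-labelled heads, but the members rose and fell together from head to head by more than the groups differed. Of the 30 tested, 27 had a lower mean in KO-labelled heads and 3 a higher one, where 55.4% of all genes tested were lower. The median difference, KO-labelled minus WT-labelled, was −0.12 in log2 units, against −0.0092 over all genes. In the limma fit over all genes, 0 members passed an adjusted p of 0.05, as did 0% of all genes, and the members' adjusted p-values ran from 0.35 to 0.979. At an unadjusted p under 0.05, 2 members were lower (Neurod1 and Nefm) and 0 higher, against 4.65% and 2.47% of all genes. Every KO-labelled head lay below every WT-labelled head for 1 member, Neurod1, and above for 0, against 7.81% and 4.52% of all genes. The shares of members past these limits were thus near or below those of all genes, and the direction of the small differences was the more uneven.

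**Figure D1:**
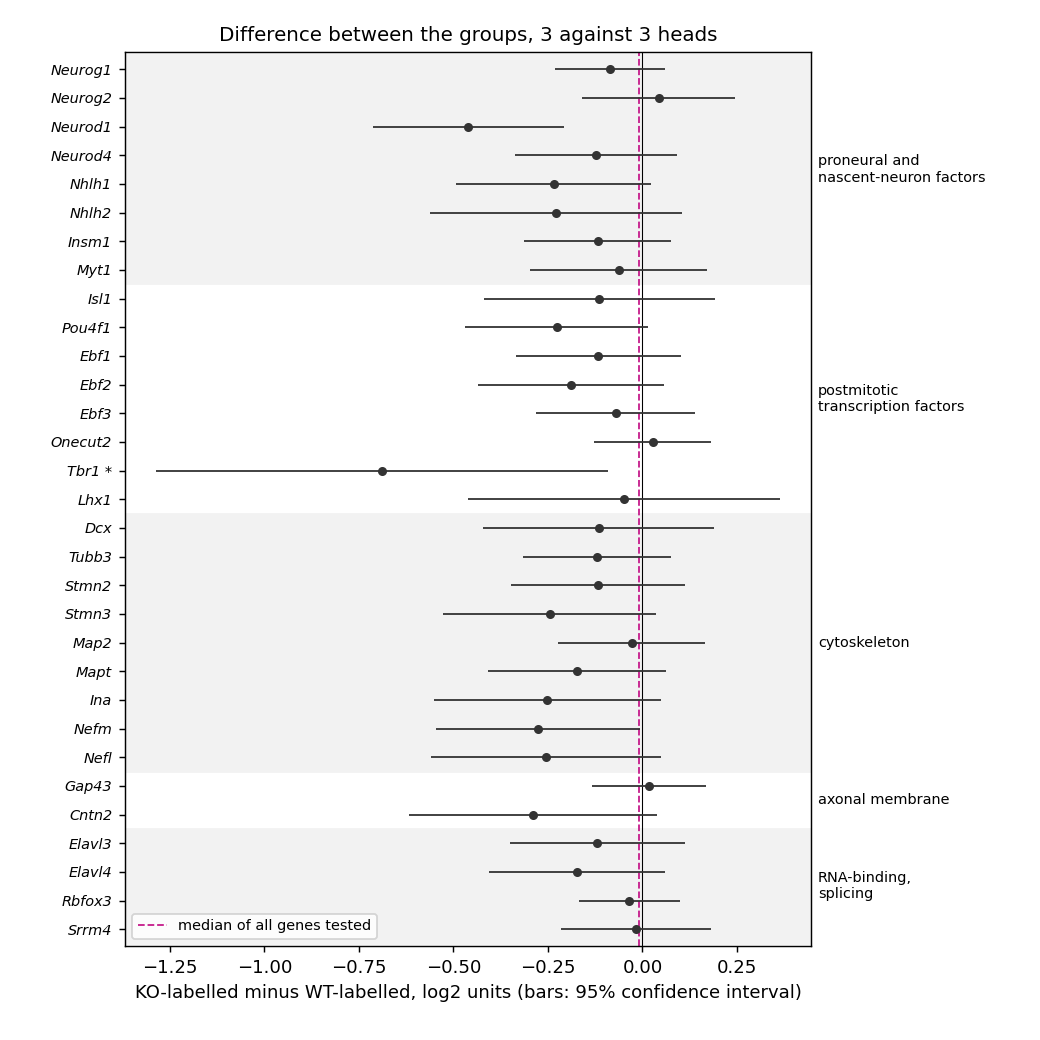
Difference between KO-labelled and WT-labelled heads (x axis, log2 units) for each member (y axis), as points with 95% confidence intervals from limma, 3 heads against 3. Points for 27 of the 30 tested members lie below 0, and among these only the intervals of Neurod1 and Nefm stay below it; Tbr1, marked with an asterisk, is from the fit without the brightness limit, and the dashed line is the median of all genes tested.

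Neurod1, which drives and maintains the neuronal state downstream of the neurogenins, had the clearest difference. Its log2 signal (probe set 10484276) was 8.95, 9.27 and 9.07 in WT 1, WT 2 and WT 3 and 8.89, 8.52 and 8.50 in KO 1, KO 2 and KO 3. The groups did not overlap, but KO 1 was close to WT 1, and KO 2 and KO 3 were well below. WT-labelled heads averaged 9.10 ± 0.16 and KO-labelled heads 8.64 ± 0.22 (SD, n = 3 each). The difference, −0.46 (SE 0.11, 0.73 times, limma adjusted p = 0.35), did not pass. Over all alternatives it ran from −0.59 to −0.37, with adjusted p-values of 0.101 or more. Neurod1 lies on chromosome 2, as do Tasp1 itself and the members Insm1, Myt1, Tbr1 and Stmn3, so an effect of the knockout and an effect of other DNA inherited with the targeted allele cannot be told apart for them. These members are spread along the chromosome, with Tbr1 near base 61804203, Neurod1 near 79456587 and Stmn3 near 181314451 (build GRCm38.p6). Their distances to Tasp1 were not compared.

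The neurogenins, which act before Neurod1 and commit progenitors to the neuronal fate, showed little difference. Neurog1 read 9.06, 8.94 and 8.94 in the WT-labelled and 8.98, 8.87 and 8.83 in the KO-labelled heads (difference −0.09, 95% confidence interval −0.23 to 0.06). Neurog2 read 8.91, 8.76 and 8.64 against 8.96, 8.82 and 8.67 (+0.04, −0.16 to 0.24), a direction that turned without KO 1 or without WT 3. In both genes the groups overlapped, and the highest and lowest Neurog2 signals were KO 1 and WT 3. Neurod4, a later bHLH gene of the same cascade, read 8.90, 9.08 and 8.71 against 8.75, 8.90 and 8.67, a difference of −0.12 (−0.34 to 0.09). The gap between Neurod1 and the neurogenins was not tested as such.

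Nhlh1 and Nhlh2 encode a pair of closely related bHLH proteins of newborn neurons. Nhlh1 read 9.14, 9.24 and 8.83 in the WT-labelled and 8.997, 8.871 and 8.641 in the KO-labelled heads. Nhlh2 read 8.07, 8.14 and 7.86 against 8.16, 7.76 and 7.47. In both genes WT 2 was high and KO 3 lowest, and KO 1 was the highest of its group, exceeding even WT 2 for Nhlh2. Their differences were alike in size, −0.23 for each, with intervals of −0.49 to 0.02 and −0.56 to 0.11. Insm1, a zinc-finger factor of cells leaving the cell cycle, and Myt1, a zinc-finger factor that favours differentiation over Notch signalling, differed by −0.12 and −0.06, with KO 1 again above KO 2 and KO 3 in both.

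Promoter windows show how the motifs of these factors are spread over the set. RefSeq windows of build GRCm38.p6, 250 bases before to 50 after a start, matched 23 of the 31 members, with 31 windows in all. The E-box words bound by neurogenic bHLH proteins, CAGATG and CAGCTG, were searched on both strands. Either word was in 12 of the 31 windows (38.7%), against 30.6% of 32851 windows of all genes. CAGATG was in 7 (22.6%, all genes 17.2%) and CAGCTG in 8 (25.8%, all genes 16.3%). CCCNNGGG, the core of the site bound by EBF proteins, was in 5 (16.1%, all genes 13.7%). The shares are a description, since windows of a gene can overlap and a match is not a bound site. Elavl4 in particular enters the counts more than once. Its windows at chr4:110287462-110287761 and chr4:110287478-110287777 nearly coincide and each hold both words, and a further Elavl4 window holds CAGATG. The windows of Nhlh1 (chr1:172057547-172057846, minus strand) and Nhlh2 (chr3:102009895-102010194, plus strand) are printed because these related genes had similar differences and each holds CAGATG, and that of Neurod1 (chr2:79456587-79456886, minus strand) because it had the clearest difference. Each runs 5′ to 3′, and capitals mark the E-box words.
Nhlh1: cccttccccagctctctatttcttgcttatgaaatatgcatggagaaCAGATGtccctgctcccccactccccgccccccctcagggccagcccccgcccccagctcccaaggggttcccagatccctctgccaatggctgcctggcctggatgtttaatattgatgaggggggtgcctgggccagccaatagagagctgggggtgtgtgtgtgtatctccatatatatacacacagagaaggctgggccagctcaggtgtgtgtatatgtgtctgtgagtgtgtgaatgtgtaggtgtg
Nhlh2: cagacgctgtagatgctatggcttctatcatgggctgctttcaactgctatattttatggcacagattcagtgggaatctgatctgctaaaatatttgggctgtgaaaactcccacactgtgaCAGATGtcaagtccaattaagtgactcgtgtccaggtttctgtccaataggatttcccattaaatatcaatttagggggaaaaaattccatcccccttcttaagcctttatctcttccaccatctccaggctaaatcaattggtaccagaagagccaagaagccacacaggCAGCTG
Neurod1: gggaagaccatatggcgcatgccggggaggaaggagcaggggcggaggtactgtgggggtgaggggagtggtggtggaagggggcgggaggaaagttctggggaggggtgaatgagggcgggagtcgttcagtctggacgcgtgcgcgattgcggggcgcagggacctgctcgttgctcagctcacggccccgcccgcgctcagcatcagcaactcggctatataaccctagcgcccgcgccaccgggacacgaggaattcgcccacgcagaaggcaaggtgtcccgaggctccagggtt
In the Nhlh2 window CAGCTG forms the last 6 bases, and the Neurod1 window holds neither word.

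The postmitotic transcription factors mark classes of young neurons, and 6 of the 7 tested were lower in KO-labelled heads, with a median difference of −0.11. None passed. The LIM factor gene Isl1, of motor and some sensory and forebrain neurons, read 8.31, 8.90 and 8.71 against 8.64, 8.59 and 8.35, so the lowest and the highest heads were both WT-labelled. The POU factor gene Pou4f1, of midbrain and sensory neurons, read 7.45, 7.83 and 7.61 against 7.57, 7.35 and 7.28 (difference −0.23, −0.47 to 0.02). The median of this class rested on WT 2, without which it was 0.0017.

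The 3 EBF genes tested, whose products drive migration and differentiation of newborn neurons, had the same order of their KO-labelled heads. Ebf1 read 10.40, 10.08 and 10.06, Ebf2 9.61, 9.22 and 9.19, and Ebf3 10.31, 10.03 and 9.97 in KO 1, KO 2 and KO 3. KO 1 was thus well above the others in each, and within the WT-labelled range (10.17 to 10.45, 9.38 to 9.64 and 10.05 to 10.32). Their differences were −0.12, −0.19 and −0.07. Ebf factors are also expressed in cranial mesenchyme. The markers of cranial mesenchyme and neural crest had mean levels of 0.16, −0.05 and −0.10 in KO 1, KO 2 and KO 3, the same order as these genes. They stood at −0.01, −0.01 and 0.01 in WT 1, WT 2 and WT 3, and WT 2 was the highest head for each of these Ebf genes. The part of that tissue in these signals was not tested. Onecut2, of motor and other early neurons, differed by +0.03 (−0.13 to 0.18) and turned without WT 1 or KO 1. Lhx1, a LIM factor gene of early midbrain and diencephalic neurons, differed by −0.05, within wide spreads (SD 0.35 among KO-labelled and 0.33 among WT-labelled heads, n = 3 each).

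Tbr1, a T-box factor gene of the first glutamatergic neurons of the cortex, varied most of all members. It read 7.82, 7.32 and 7.08 in the WT-labelled and 7.405, 6.641 and 6.113 in the KO-labelled heads. KO 1 lay among the WT-labelled heads, and KO 2 and KO 3 below all of them. The difference was −0.69 (−1.29 to −0.09, limma adjusted p = 0.773 without the brightness limit). The KO-labelled mean of 6.72 is under that limit, which is a rank cut and not a detection floor. The ratio of 0.62 is one of signals and not of transcripts, as is every ratio given here. Eomes, a T-box factor gene that precedes Tbr1 in cortical neurogenesis and is no member, had the same order of KO-labelled heads, 8.69, 7.90 and 7.58, against 9.05, 8.60 and 8.54 in the WT-labelled ones (difference −0.67, limma adjusted p = 0.629).

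The cytoskeletal genes were lower in KO-labelled heads in 9 of 9 cases, with a median difference of −0.17; the medians of the other classes lay between −0.14 and −0.08. None passed the adjusted threshold. Nefm and Nefl encode the medium and light neurofilament subunits, and Ina encodes alpha-internexin, a neurofilament protein of young neurons. Nefm read 8.78, 9.13 and 8.74 in the WT-labelled and 8.82, 8.60 and 8.41 in the KO-labelled heads, a difference of −0.28 (SE 0.12, 0.83 times, limma adjusted p = 0.687). Nefl read 10.37, 10.51 and 10.07 against 10.35, 10.01 and 9.82 (−0.26). Ina read 10.98, 10.80 and 10.43 against 10.73, 10.38 and 10.34 (−0.25), and its other probe set gave −0.24. In all of them KO 1 lay within the WT-labelled range, while KO 2 and KO 3 lay below it.

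The other cytoskeletal members act on microtubules, and their differences ran from −0.25 to −0.03. Tubb3, the neuronal beta-tubulin, read 9.90, 9.80 and 9.65 against 9.79, 9.71 and 9.49 (−0.12). Dcx, which encodes doublecortin, a microtubule-binding protein of migrating neurons, read 10.26, 10.38 and 10.05 against 10.44, 10.10 and 9.81 (−0.12), and its difference turned to +0.0375 without KO 3. The highest and the lowest Dcx signals were both in KO-labelled heads. Stmn2 and Stmn3, stathmin genes of growing neurites, differed by −0.12 and −0.25. The microtubule-associated protein genes Map2 and Mapt differed by −0.03 and −0.17, that of Map2 turning without WT 1, KO 2 or KO 3. A second, much dimmer Stmn3 probe set (mean 4.78) gave −0.16.

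Of the axonal membrane genes, Gap43, a growth-cone protein gene, was nearly level. It read 9.29, 9.30 and 9.16 against 9.37, 9.25 and 9.18, a difference of +0.02 (−0.13 to 0.17) that became −0.0097 when arrays were centred on their medians and also turned without KO 1 or WT 3. Cntn2, which encodes the adhesion protein TAG-1 of early axons, read 8.44, 8.70 and 8.40 against 8.61, 8.02 and 8.04 (−0.29, −0.62 to 0.04). Its KO-labelled heads thus split into a high one and a low pair. Of the RNA-binding genes, the neuronal Hu protein genes Elavl3 and Elavl4 differed by −0.12 and −0.17. The neuronal splicing factor genes Srrm4 and Rbfox3 (NeuN, a marker of mature neurons) differed by −0.02 and −0.03. Rbfox3 hardly varied, its lowest head being 8.51 and its highest 8.64.

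The split among the KO-labelled heads ran through the set. KO 1 exceeded both KO 2 and KO 3 in 28 of 30 members, against 38.3% of all genes tested, with a median excess over their mean of 0.31 log2 units (all genes 0.015). KO 3 was the lowest of all 6 heads in 21 members (25.7% of all genes). Among the WT-labelled heads, WT 3 was lowest in 22 members (27.5% of all genes), with a median of −0.21 relative to the mean of WT 1 and WT 2. WT 1, WT 2 and KO 1 were the 3 highest heads in 20 members (66.7%), against 6.34% of all genes. The orders counted here were not fixed beforehand and the members covary, so these shares describe the heads and carry no test. The order of heads therefore crossed the groups, with 2 WT-labelled heads and 1 KO-labelled head on the high side. The median range of a member over the 6 heads was 0.44, against 0.21 over all genes.

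**Figure D2:**
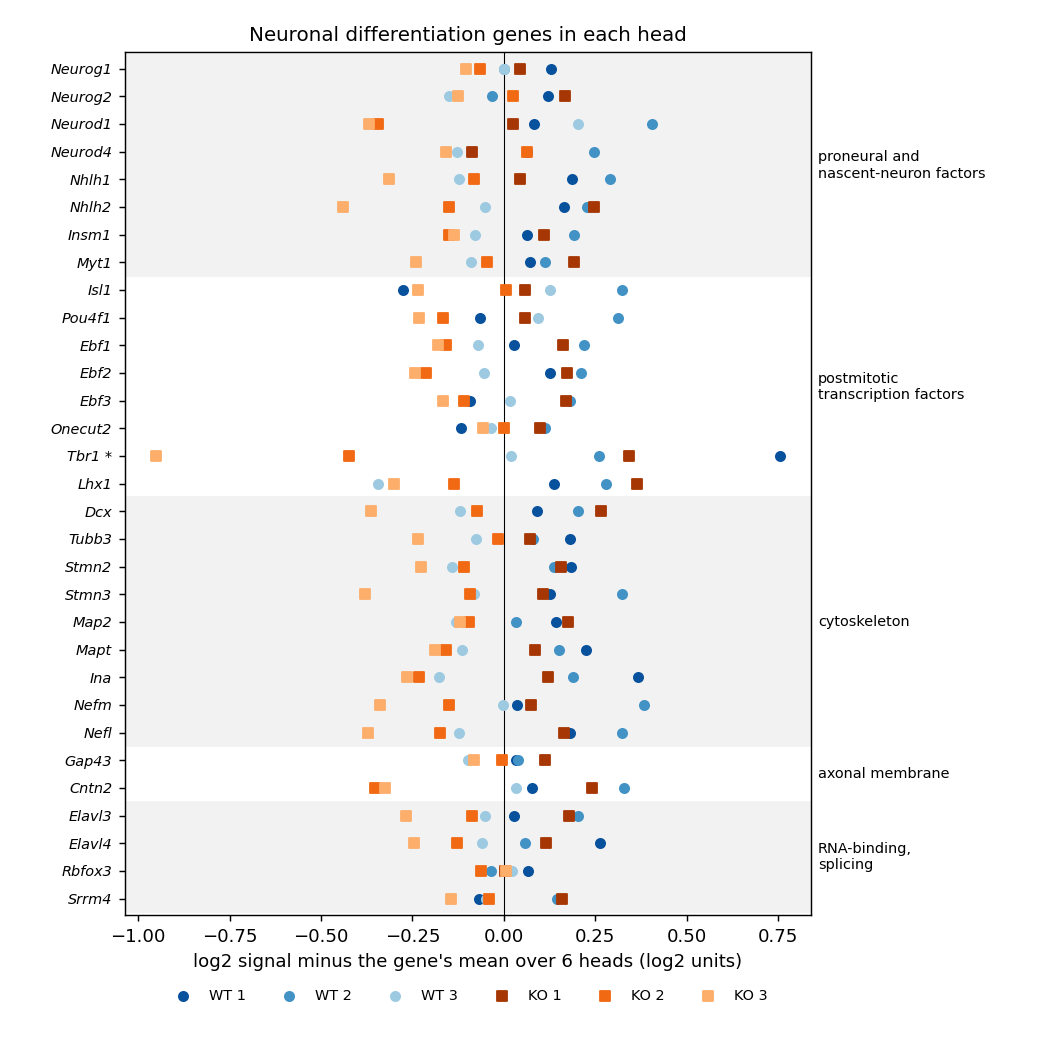
Log2 signal of each member (y axis) in each head, minus that gene's mean over the 6 heads (x axis, log2 units). Circles are WT-labelled and squares KO-labelled heads, and Tbr1 (asterisk) is below the brightness limit; KO 1 lies beside WT 1 and WT 2 on the right in most rows, KO 3 is the lowest head in 21 of the 30 tested members, and Neurod1 is the only one whose squares all lie left of its circles.

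Taking the mean over the 30 tested members of each gene's signal minus its own average, the heads stood at 0.09, 0.19 and −0.06 for WT 1, WT 2 and WT 3 and at 0.13, −0.11 and −0.23 for KO 1, KO 2 and KO 3. The group means, 0.07 ± 0.13 and −0.07 ± 0.18 (SD, n = 3 each), differed by less than the highest and lowest heads within each group. The counts moved with single heads accordingly. Without KO 1 the median difference was −0.23 and 17 members were lower at an unadjusted p under 0.05 (5.36% of all genes). Without WT 3 these were −0.21 and 9 (5.31% of all genes). Without KO 3 they were −0.06 and 1, without WT 2 −0.07 and 1, and with Xist signal as a covariate −0.07 and 1. Only WT 2 had a high Xist signal, so the last 2 fits are nearly the same check and cannot separate sex from that head. Without WT 1 the median was −0.12 with 4 such members, and without KO 2 it was −0.12 with 1. Of the 11802 genes tested, 449 were lower at that limit without KO 3, 570 without WT 2 and 552 with Xist as a covariate. Without WT 1 it was 379 genes and without KO 2 298. Of all the fits with a head left out or with Xist as a covariate, 0 brought a member past the adjusted threshold in limma.

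Members of the set covaried over the 6 heads. The median Pearson correlation over the 435 pairs of tested members was 0.77, and 42.8% of the pairs exceeded 0.8. Over all pairs of the genes tested the median was 0.05, and 4.66% exceeded 0.8. With each group's mean subtracted, so that only differences among heads of the same label count, the members' median was 0.80 and 50.1% of pairs exceeded 0.8, against 0.06 and 7.44%. All pairs share the same 6 arrays and preparations, and only 4 degrees of freedom remain after centring, so these values describe the heads and carry no test.

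The classes differed in how tightly they moved. The cytoskeletal genes were the tightest of the classes with more than 1 pair (median r 0.89, 36 pairs), followed by the postmitotic factors (0.80, 21 pairs), the proneural and nascent-neuron factors (0.68, 28 pairs) and the RNA-binding or splicing genes (0.49, 6 pairs). Between classes, proneural and cytoskeletal genes had a median of 0.82 (72 pairs), and proneural and postmitotic factors 0.59 (56 pairs). Nefl followed the mean of the other members most closely (r = 0.99), with Ebf2, Nhlh2 and Elavl3 next (0.98, 0.97 and 0.97). With signals as measured the weakest were Rbfox3 (0.09), Isl1 (0.46), Onecut2 (0.53) and Neurog2 (0.58). With group means subtracted they were Rbfox3 (−0.14), Isl1 (0.39), Neurod4 (0.52) and Neurog1 (0.62), while Onecut2 stood at 0.71 and Neurog2 at 0.78. The neurofilament gene Nefl was thus the closest, and Rbfox3 and Isl1 the loosest, on both scales. Rbfox3 spanned only 0.13 log2 units over the heads, against 0.60 for Isl1, so its correlations rest on very small differences. As measured, the RNA-binding or splicing pairs without it gave 0.92 (Elavl3 and Srrm4), 0.75 (Elavl3 and Elavl4) and 0.47 (Elavl4 and Srrm4).

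**Figure D3:**
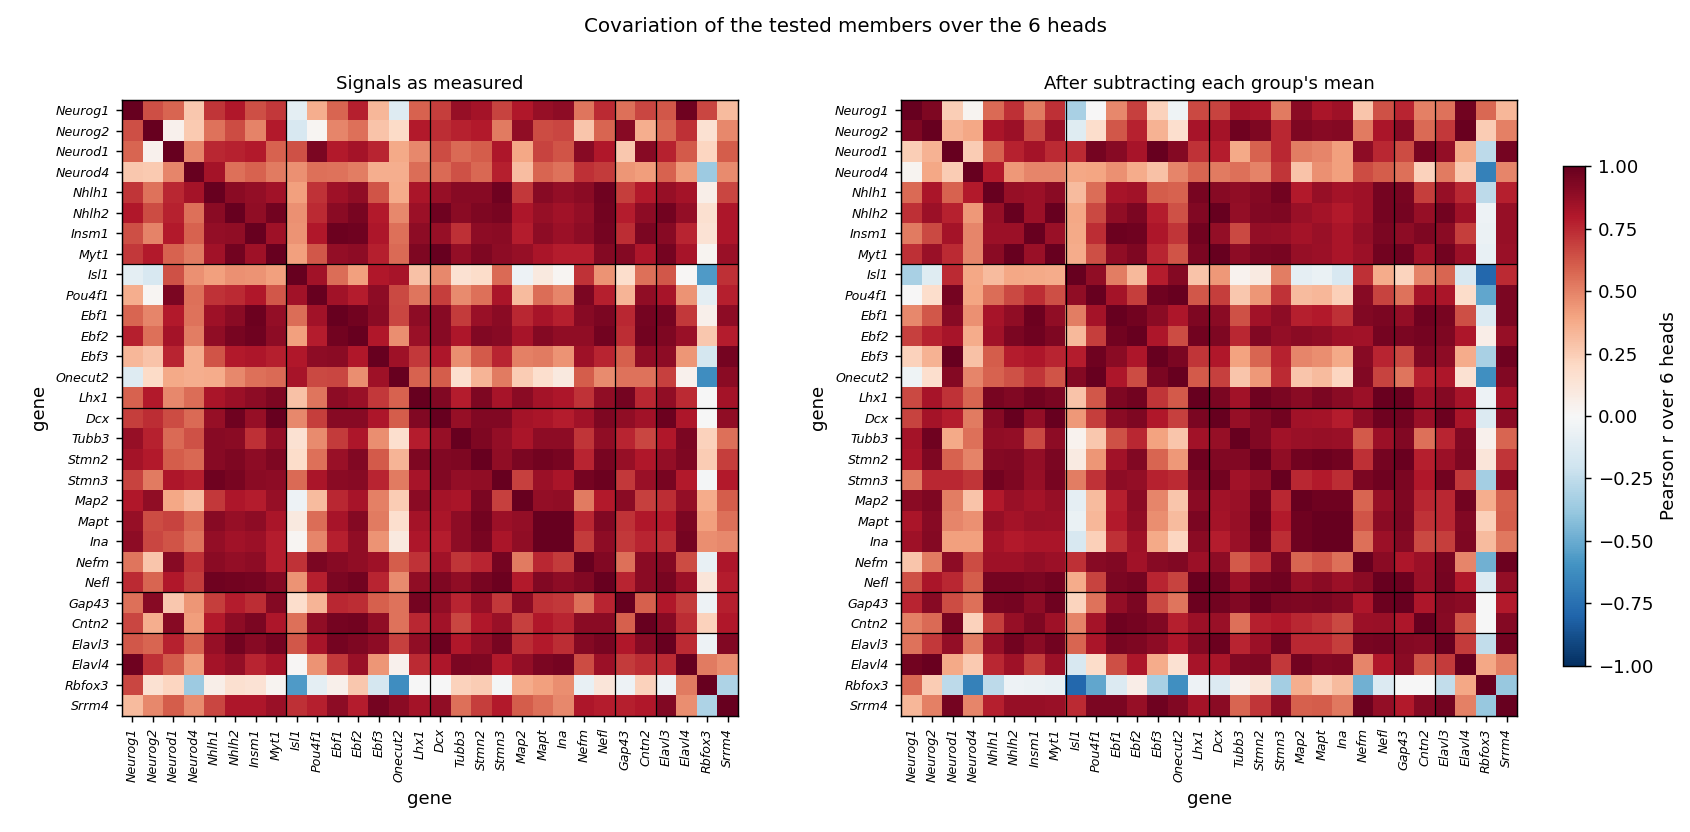
Pearson correlation over the 6 heads (colour, −1 to 1) between each pair of the 30 tested members, with signals as measured (left) and with each group's mean subtracted (right); black lines separate the classes. Most cells are red in both panels, with medians of 0.77 and 0.80, and Rbfox3 and part of the row of Isl1 are pale or blue.

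The members differed in the order of WT 1 and WT 2. WT 1 exceeded WT 2 in 9 members (30%, against 55.5% of all genes): Neurog1, Neurog2, Tubb3, Stmn2, Map2, Mapt, Ina, Elavl4 and Rbfox3. The excess was largest for Elavl4 (0.20 log2 units) and Ina (0.18). In the other 21 WT 2 was higher, by most for Isl1 (0.60), Pou4f1 (0.38), Nefm (0.35) and Neurod1 (0.32). The first list holds both neurogenins and 5 of the 9 cytoskeletal genes, and 0 of the 7 postmitotic factors tested. Without WT 1 the median pairwise correlation was 0.86, without KO 3 it was 0.67, and with another head left out it lay between 0.76 and 0.80. WT 2 is the head with the high Xist signal and WT 1 the one farthest on the first principal component, and the part of either in this contrast was not tested.

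For 8 pairs the correlation over the 6 heads was tested by exact permutation of the pairings, two-sided, with adjustment over the 8. Tubb3 and Stmn2 (r = 0.93, exact permutation p = 0.00556, adjusted 0.022; Spearman's rho = 0.94, p = 0.0167, adjusted 0.067) passed by Pearson's r, as did Nefl and Nefm (r = 0.93, exact p = 0.00556, adjusted 0.022; rho = 0.94, p = 0.0167, adjusted 0.067). Without the 2 heads farthest from the first gene's median, r was 0.96 and 0.83. With group means subtracted, r was 0.92 and 0.90 (permutation over all pairings, adjusted p = 0.053 for each). Subtracting the means ties the values of a group together, so heads are not freely exchangeable between groups. Permutation p-values after subtraction are therefore not exact and decide nothing. Both pairs thus passed by Pearson's r, not by Spearman's rho, and on measured signals alone.

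Isl1 and Pou4f1 gave r = 0.84 (exact permutation p = 0.0417, adjusted 0.067) and rho = 0.83 (exact permutation p = 0.0583, adjusted 0.117). Neither passed. With group means subtracted r was 0.89, and permutation over all pairings gave the smallest p that 6 heads can give (p = 0.00278, adjusted 0.022). For the reason given above that p is not exact, and the pair is not counted as passing. Left without 2 heads, r was 0.87 as measured and 0.82 with group means subtracted. Neurod1 and Nefm (r = 0.91, exact permutation p = 0.025, adjusted 0.05; rho = 0.77, p = 0.103, adjusted 0.117) and Nhlh1 and Nhlh2 (r = 0.90, exact p = 0.025, adjusted 0.05; rho = 0.77, p = 0.103, adjusted 0.117) lay at the threshold of 0.05, not under it. Without 2 heads they gave 0.80 and 0.76, but with group means subtracted the relation of Neurod1 and Nefm rested on WT 2 and KO 1, without which r was −0.03. Elavl3 and Elavl4 (r = 0.75, exact permutation p = 0.0889, adjusted 0.102; rho = 0.77, p = 0.103, adjusted 0.117; 0.63 without 2 heads) did not pass. Neurog2 and Neurod4 (r = 0.26, exact permutation p = 0.597, adjusted 0.597; rho = 0.43, p = 0.419, adjusted 0.419; 0.42 without 2 heads) did not either, although both are bHLH genes of the same cascade. With group means subtracted, r of Elavl3 and Elavl4 was 0.70, and 0.18 without KO 1 and KO 3. That of Neurog2 and Neurod4 was 0.39, and 0.93 without WT 1 and KO 1, so both values rested on a pair of heads.

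The 8th pair set a neuronal against a progenitor gene. Sox2, which holds cells in the progenitor state, read 11.42, 11.42 and 11.54 in the WT-labelled and 11.41, 11.53 and 11.53 in the KO-labelled heads, low where Dcx was high and high where it was low. The correlation of Dcx with Sox2 was −0.86 (exact permutation p = 0.05, adjusted 0.067; rho = −0.81, p = 0.0722, adjusted 0.117), and −0.95 without KO 1 and KO 3. It did not pass after adjustment. No other progenitor gene was set against Dcx, so the pair does not stand for progenitor genes as a class. Fabp7, of the same progenitor list, read 12.82, 12.76 and 12.59 in the WT-labelled and 12.75, 12.62 and 12.52 in the KO-labelled heads. Its 3 highest heads were WT 1, WT 2 and KO 1, as for Dcx. Sox2 itself differed by +0.03 between the groups (limma adjusted p = 0.94).

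Neuronal genes outside the set also read lower more often than higher. Of 56 further genes of neuronal differentiation 53 had a probe set of their own and 47 were tested, and 35 were lower and 12 higher in KO-labelled heads, with a median of −0.09. At an unadjusted p under 0.05, 7 were lower and 0 higher (all genes 4.65% and 2.47%), and 0 passed the adjusted threshold. Rnd2, a small GTPase gene of migrating neurons, differed by −0.36, Eomes by −0.67 and Lhx9, a LIM factor gene of diencephalic neurons, by −0.37 (limma adjusted p = 0.549, 0.629 and 0.668). Their mean level per head had the same 3 heads on the high side, at 0.12, 0.08 and 0.10 for WT 1, WT 2 and KO 1, and −0.03, −0.09 and −0.18 for WT 3, KO 2 and KO 3.

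All 19 listed genes of Notch signalling, which keeps neighbouring cells from differentiating, were tested, 13 were lower and 6 higher, and the median was −0.05. At an unadjusted p under 0.05, 2 were lower and 0 higher (4.65% and 2.47% of all genes). In 3, every KO-labelled head was below every WT-labelled one (7.81% of all genes). Heyl differed by −0.30, Hey1 by −0.20 and Mfng, which modifies Notch receptors, by −0.19 (limma adjusted p = 0.499, 0.629 and 0.774). Their mean level was 0.02, 0.04 and 0.03 in the WT-labelled and 0.03, −0.03 and −0.10 in the KO-labelled heads, again lowest in KO 3. Of the 23 neural progenitor genes, 16 were lower and 7 higher, with a median of −0.03. Here 3 were lower and 0 higher at an unadjusted p under 0.05 (4.65% and 2.47% of all genes). Groups did not overlap in 3, all lower (7.81% of all genes). In limma 0 genes of either list passed the adjusted threshold. The glial and progenitor factor gene Sox9 differed by −0.19, Vim, which encodes vimentin, by −0.10 and the surface protein gene Prom1 by −0.12 (limma adjusted p = 0.548, 0.549 and 0.675). The mean level of the progenitor list spanned only −0.03 to 0.04 over the heads and did not set WT 1, WT 2 and KO 1 apart from the rest.

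**Figure D4:**
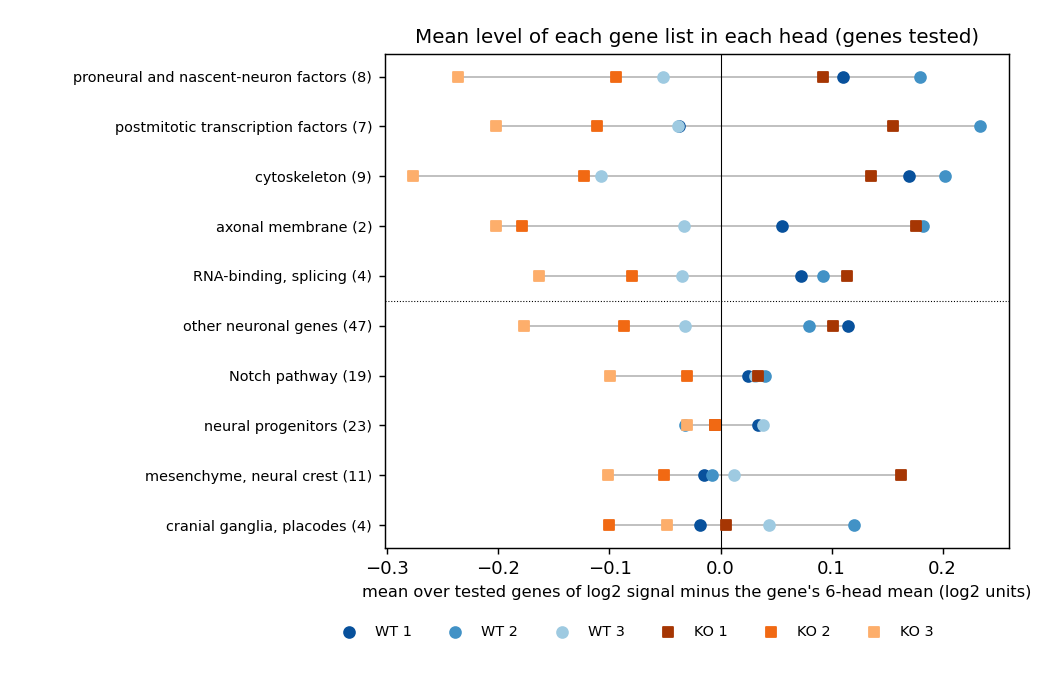
Mean level of each class of members (above the dotted line) and of other gene lists (below it) in each head, as the mean over tested genes of the log2 signal minus the gene's 6-head mean (x axis, log2 units; number of genes in brackets). In the 5 classes WT 2 and KO 1 lie to the right of 0 and KO 3 is leftmost, while the neural progenitor list spans only −0.03 to 0.04.

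Since dissected forebrain and midbrain tissue was measured in bulk, fewer neurons and less RNA per neuron cannot be told apart. Levels of other cell types varied between heads too. The 11 tested markers of cranial mesenchyme and neural crest (of 12 listed) had mean levels of −0.01, −0.01 and 0.01 in the WT-labelled and 0.16, −0.05 and −0.10 in the KO-labelled heads, with KO 1 highest and KO 3 lowest, as among the KO-labelled heads for the members. Their median difference was 0.0016, with 6 of them above 0 and 5 below. The 6 markers of ganglia and placodes with a probe set had mean log2 signals of 8.04 to 8.13 in the WT-labelled and 7.95 to 8.08 in the KO-labelled heads. The neural crest and glial gene Sox10 was at −0.38 (limma adjusted p = 0.549), and 2 of the 4 tested markers were higher and 2 lower. The 11 tested neuroepithelium markers were highest in WT 1, at 0.15, and between −0.09 and 0.02 in the other heads. Of them 6 were lower and 5 higher in KO-labelled heads, and groups did not overlap in 2, both lower (7.81% of all genes). These were Lhx2 at −0.33 and Emx2 at −0.32 (limma adjusted p = 0.228 and 0.472). The part of these tissues in the members' signals was not tested.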

How the data were processed

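Per the labels, RNA of 6 embryo heads (100 ng of total RNA each) was labelled and read on Affymetrix arrays. The table deposited by the authors covers 35556 probe sets with log2 signals between 2.73 and 14.4, a scale read from the values themselves. Expression Console (Affymetrix) and MAS5 appear in the submitters' processing notes, with neither version nor role; background correction, scaling and summary method are not given in the sources used here. Values were used as deposited, with no pseudocount. The number of arrays limits the precision: 3 against 3 cannot give an exact two-sided permutation p below 0.1.

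Probe sets with 1 gene symbol (21789) were kept, the dimmest 40% by mean over all arrays left out, and the brightest probe set taken per gene. The groups were compared in 1 fit of 11802 genes with limma 3.58.1 in R 4.3.3 (lmFit, then eBayes with trend; tests two-sided). P-values were adjusted over all of them by Benjamini-Hochberg, with a threshold of 0.05. The procedure was tested on simulated data. The members, classes and gene lists were chosen with earlier results of these data known, so no p was adjusted over them alone and no list test was made. All members are named; from the neuronal, Notch and progenitor lists, the 3 tested genes with the smallest unadjusted p; and, in the closing section, the genes whose signals followed the members most closely. Sox2 belongs to a chosen pair, and Fabp7, Sox10, Prph, Tlx3, Lhx2 and Emx2 were singled out after their values were seen. Correlations used scipy 1.17.1, and figures matplotlib 3.10.9.

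The alternatives were quantile normalization, median centring, the mean of probe sets, a 60% filter or none, 64 added to linear signals, no variance trend, the replicate number as a block, Xist signal as a covariate, and each head left out; leaving heads out of the correlations was added after seeing the data. Replicate numbers are shared between groups, but the labels state no pairing.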

Additional observations from a re-analysis of the deposited data

How the results depend on the processing

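Over all 15 alternatives, 0 members passed an adjusted p of 0.05 in limma (lowest 0.101), while the count of all genes past it, 0 as reported, was 1 with quantile normalization, 2 without the brightness filter, 1 with the 60% filter and 0 to 6 with 1 head left out. The count of members lower at an unadjusted p under 0.05, 2 as reported, was 6 with median centring, 1 without a variance trend, 1 with Xist as a covariate, and 1 to 17 with 1 head left out. Over the 11802 genes tested the matching counts were 549 as reported, 640, 550, 552, and 298 to 632. Members with a difference below 0 numbered 22 to 30 with 1 head left out and 21 of 24 tested under the 60% filter, and the members' median difference ran from −0.23 to −0.06. Median centring moved the median of all genes from −0.0092 to −0.04 and the members' median to −0.15. Of 264 member differences under settings with all heads, 259 kept their sign and side; with Xist as a covariate Isl1 (0.0198), Ebf3 (4.5e-04), Lhx1 (0.0800) and Srrm4 (0.0505) turned, and with median centring Gap43 did (−0.0097). With 1 head left out 19 of 180 turned, and the ranges were −0.0294 to 0.117 for Neurog2, −0.174 to 0.0418 for Myt1, −0.281 to 0.0182 for Isl1, −0.174 to 0.00170 for Ebf3, −0.0252 to 0.0898 for Onecut2, −0.242 to 0.0901 for Lhx1, −0.277 to 0.0375 for Dcx, −0.123 to 0.0356 for Map2, −0.0342 to 0.0620 for Gap43 and −0.102 to 0.0509 for Srrm4. The members' median pairwise correlation ran from 0.67 to 0.86 with 1 head left out.

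With the replicate number as a block, 7 members were lower at an unadjusted p under 0.05 in limma, and 0 passed adjustment. Of the 11802 genes tested, 449 were lower at that limit. Heads of the same number did not deviate together across genes (correlations of −0.17, −0.11 and −0.21). These values cannot show whether such heads shared a litter, day or batch, which the labels do not state.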

Other observations

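Outside the members and the neuronal, Notch and progenitor lists, 239 of 11686 genes (2.05%) had a correlation over 0.9 with the members' mean after group means were subtracted; only 4 degrees of freedom remain, all genes share the same 6 arrays, and these correlations carry no test. The 10 closest were Tigd3, Shisa3, Spock2, Akap6, Ripor2, Sumf2, Ube2l6, H2az2, Fsd1 and Kidins220, with r from 0.991 to 0.999. Among them Akap6, a scaffold of protein kinase A, and Spock2, an extracellular matrix proteoglycan gene, spanned 0.62 and 0.53 log2 units over the heads, wider than the members' median of 0.44, while Fsd1 spanned 0.10. The differences between KO-labelled and WT-labelled heads of the 10 ran from −0.25 for Ripor2 to +0.06 for Kidins220, and 0 passed an adjusted p of 0.05 in limma. The 5 genes that ran most opposite were Ptpn12, Ak4, Mapkapk3, Bin3 and Ska1, with r from −0.999 to −0.992. Ak4, a mitochondrial adenylate kinase gene, spanned 0.34 log2 units and Ska1, a kinetochore gene, 0.24, while Ptpn12 spanned 0.05.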
